A study of Drosophila melanogaster and Drosophila simulans and Drosophila yakuba with 72 samples.

Results

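The response of Drosophila melanogaster males to the onset of metamorphosis was compared among 4 strains, which are Zimbabwe-109, Samarkand, Canton-S and Oregon-R. The comparison covers 32 of the 72 samples and 16 of the 36 arrays of the series, and the samples were taken by the species, sex, strain and stage in their labels. Each strain gave 4 arrays, and each array carried both stages of 1 replicate in opposite dyes, so the stage change is a difference within an array. The later stage is labelled PF, read here as puparium formation. The earlier one is labelled as at least 18 before PF, read here as hours, and is called the earlier stage. The labels name no transgene, mutant allele or drug in any group, and give no exact age. Larvae were reared at 25 °C under constant light on corn meal food dyed with 0.05% bromophenol blue. A replicate was a pool of 60 to 80 whole frozen animals weighing about 120 mg. Gut, muscle, nervous system and gonad were therefore measured together. With such mixed tissue, fewer cells of a type and less RNA per cell cannot be told apart. The strain names could not be checked on a miRNA array.

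MicroRNAs are short RNAs that pair with messenger RNAs mainly through their seed, bases 2 to 8, and lower the output of those messages. At the end of larval life a pulse of the steroid hormone ecdysone starts metamorphosis in flies. The let-7 complex, a single transcript that yields let-7, miR-100 and miR-125, is switched on around that time, and miR-34 is known in fly cells to respond to ecdysone in the opposite direction. The question here is whether the size or the direction of a miRNA's change at that transition differs between strains of 1 species.

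The sequences below are those of miRNAs described at length here, with let-7 and miR-125 shown as the partners of miR-100 and the 3p arm of miR-34 beside its 5p arm. They are the target sequences of the array design, per the file headers, written 5′ to 3′ with the seed in capitals. Chromosome arms come from a RefSeq gene table for the assembly Release 6 plus ISO1 MT.
miR-279, on 3R: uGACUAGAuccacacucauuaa
miR-289, on 3L: uAAAUAUUuaaguggagccugcgacu
let-7, on 2L: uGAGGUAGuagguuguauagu
miR-100, on 2L: aACCCGUAaauccgaacuugug
miR-125, on 2L: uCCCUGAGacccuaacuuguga
miR-2a, on 2L: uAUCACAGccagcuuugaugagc
miR-2b, on 2L: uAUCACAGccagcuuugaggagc
miR-10-5p, on 3R: aCCCUGUAgauccgaauuuguu
miR-34, on 3R: uGGCAGUGugguuagcugguugug
mir-34-3p, on 3R: cAGCCACUaucuucacugccgcc
miR-317, on 3R: uGAACACAgcuggugguauccagu
Of these 11, only miR-2a and miR-2b share a seed, AUCACAG. The 3 miRNAs of the let-7 complex have 3 different seeds although they come from neighbouring hairpins.

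Intensities were read for 1339 miRNA probes, of which 272 were bright enough to be tested. A sample had 87 to 252 detected probes, where detected means an intensity over 3 SD above the empty spots. Of the 272, 88 were listed for D. melanogaster, and the others were designed for other insects or as custom candidates. A further property matters below: the target of 20 tested probes holds runs of G, either 4 together or 2 and more runs of 3. Levels are normalised log2 intensities and are compared only within a probe. Changes are log2 differences, PF minus earlier, given with the standard error (SE) of a limma fit over the 16 arrays, and every adjusted p is limma's with Benjamini-Hochberg correction over all 272 probes. The p-values measure the spread among these pools only. Changes correlated at 0.823 to 0.942 between Oregon-R arrays and at 0.878 to 0.956 between Zimbabwe-109 arrays, against 0.558 to 0.745 between arrays of these 2 strains. The 16 arrays lay on 5 slides, by a number in the scanner file names that is read here as the slide. No label states that it is. Oregon-R and Canton-S each had a slide that held no other of the 4 strains, while 2 Samarkand and 3 Zimbabwe-109 arrays shared a slide. Within these 16 arrays, differences of Oregon-R or Canton-S from each other, or from Samarkand or Zimbabwe-109, therefore cannot be told apart from slide. A 4-digit number follows the slide in the file names, and no label gives its meaning. No 2 of the 4 strains shared it, so strain cannot be told apart from that number.

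The stage change differed among the strains for a sizeable share of the tested probes. The F test for equal changes in the 4 strains called 61 of 272 probes, or 22.4% (85 at an unadjusted p under 0.05). In 47 of the 61 the change had the same sign in all 4 strains. The size of the change was largest in Zimbabwe-109 in 39 of the 61 and smallest in Oregon-R in 40. These sign and size counts were not made over all 272 probes, so they do not single out the called ones. Of the 61, 10 were above background in 0 of the 8 Oregon-R samples, so neither the sign nor the size of a change could be measured there. The 61 probes stand for 55 distinct arms or sequences. Probes listed for D. melanogaster made up 18 of the 61, and 15 of these had no run of G, out of 83 such probes tested. The 15 were miR-279, miR-289, miR-100, miR-2493*, miR-10-5p, mir-34-3p, miR-2a, miR-7, miR-1010, miR-2b, miR-998, miR-252, miR-986, miR-34 and miR-317. The count depended on the processing. It was 23 after plain background subtraction and 92 without normalisation. Of the 87 probes detected in at least 3 samples of each of the 8 groups, the F test called 22. With slide as a fixed term 26 were called, but only Canton-S minus Oregon-R and Zimbabwe-109 minus Samarkand could then be tested. That fit also used the D. simulans and D. yakuba male arrays. Without the pairing of stages on an array the F test called 36, and without Zimbabwe-109 replicate 1 it called 39.

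Against the mean of the other 3 strains, 41 probes (15.1%) differed in Oregon-R, 19 with a higher and 22 with a lower change. In Zimbabwe-109 47 probes (17.3%) differed, 24 with a higher and 23 with a lower change. Only 6 probes (2.21%) set Canton-S apart and 7 (2.57%) set Samarkand apart, at unadjusted counts of 33 and 31. By pairs, with p adjusted over probes and the 6 pairs jointly, Zimbabwe-109 and Oregon-R differed in 55 probes (20.2%). Zimbabwe-109 differed from Samarkand in 30 (11%) and from Canton-S in 26 (9.56%). Canton-S differed from Oregon-R in 24 (8.82%), Samarkand from Oregon-R in 13 (4.78%), and Samarkand from Canton-S in 7 (2.57%). The counts moved with single arrays. Without Oregon-R replicate 3 or 5, 19 or 20 probes set Oregon-R apart, and 34 separated Zimbabwe-109 from Oregon-R without replicate 3. Without Samarkand replicate 2, 0 probes set Samarkand apart in the limma fit. Canton-S and Oregon-R differed in 15 without Oregon-R replicate 5, and Zimbabwe-109 and Samarkand in 46 without Zimbabwe-109 replicate 3. Zimbabwe-109 and Canton-S differed in 16 without Zimbabwe-109 replicate 1, 2 or 4 and in 17 without Canton-S replicate 1, 2 or 4. Samarkand and Canton-S differed in 3 without Canton-S replicate 4 and in 4 without Samarkand replicate 2 or 3.

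The number of probes that changed between stages was counted within each strain. In Oregon-R 85 probes changed (31.2%), 50 upward and 35 downward. In Samarkand 120 changed (44.1%), in Canton-S 131 (48.2%) and in Zimbabwe-109 161 (59.2%). Upward changes outnumbered downward ones in each strain, by 85 to 35 in Samarkand, 89 to 42 in Canton-S and 112 to 49 in Zimbabwe-109. These counts are limited by detection, since 55 of the 272 tested probes were at background in all 8 Oregon-R samples, 61 in Samarkand, 26 in Canton-S and 19 in Zimbabwe-109.

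**Figure D1:**
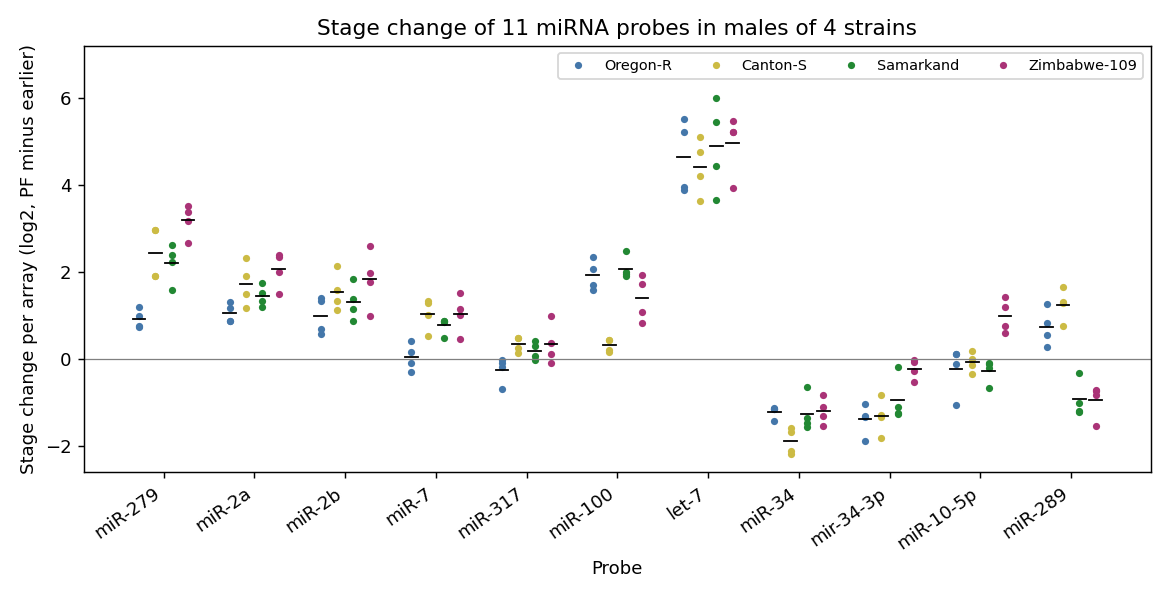
Stage change in each male array (log2, PF minus earlier, vertical axis) for 11 miRNA probes, with points for the 4 arrays of a strain and a bar for their mean. Oregon-R has the lowest points for miR-279, miR-289 changes sign between the left and right pairs of strains, and let-7 overlaps in all 4 strains.

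Among the nervous system and sense organ miRNAs the largest strain difference was in miR-279, which in flies keeps extra carbon dioxide sensing neurons from forming and limits JAK/STAT signalling. Its level rose at PF in every strain, least in Oregon-R and most in Zimbabwe-109. The change was 0.74, 0.75, 1.00 and 1.19 in the Oregon-R arrays. It was 1.91, 1.91, 2.95 and 2.97 in the Canton-S arrays and 1.58, 2.24, 2.38 and 2.62 in the Samarkand arrays. In Zimbabwe-109 it was 2.67, 3.17, 3.39 and 3.52. No Oregon-R array reached any array of another strain, whereas Canton-S and Samarkand overlapped in part. The fitted changes of 0.92, 2.44, 2.21 and 3.19 ± 0.20 (SE, 4 arrays per strain), in the order of strains above, differed among the strains at an adjusted p of 0.000412. Oregon-R lay 1.69 below the mean of the others (adjusted p = 0.000227) and Zimbabwe-109 lay 1.33 above it (adjusted p = 0.00131). Canton-S and Samarkand did not pass the test against each other, with a difference of -0.23 (adjusted p = 0.762).

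The levels behind these changes differed mainly before PF. At the earlier stage miR-279 stood at 12.45, 12.71, 13.05 and 13.20 in Oregon-R and at 8.65, 8.98, 9.64 and 10.16 in Zimbabwe-109. Canton-S read 10.11 to 11.25 and Samarkand 9.76 to 11.40 in that stage. All 4 Oregon-R samples were thus above all 12 samples of the other strains. At PF the strain means were closer, at 13.77 ± 0.12 in Oregon-R, 13.10 ± 0.11 in Canton-S, 12.83 ± 0.31 in Samarkand and 12.54 ± 0.78 in Zimbabwe-109 (SD, n = 4). The strain differences in level passed the test at both stages, with adjusted p values of 3.13e-08 and 0.0258. The probes bmo-miR-279a and tca-miR-279b, designed for the silkworm and flour beetle members of the family, gave nearly the same changes (0.82 and 0.77 in Oregon-R, 3.02 and 3.04 in Zimbabwe-109) and may bind the same RNA. With slide as a term, the Canton-S minus Oregon-R difference went from 1.52 to 0.99 (adjusted p = 0.353), a comparison that then rests on the D. simulans arrays of those slides.

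**Figure D2:**
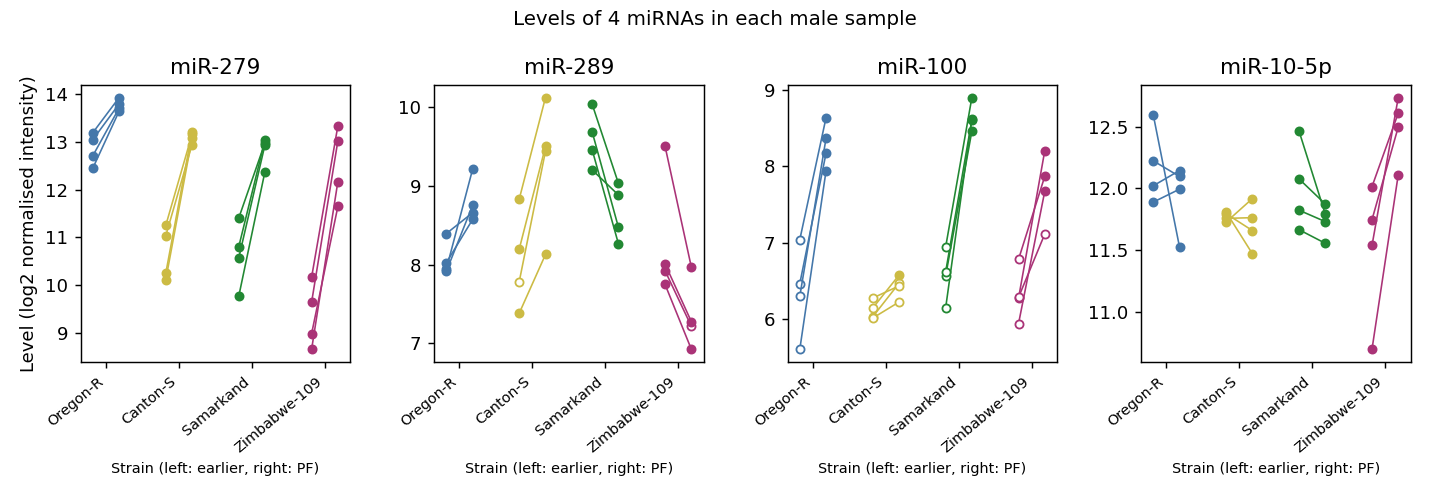
Normalised log2 intensity of miR-279, miR-289, miR-100 and miR-10-5p in each male sample, with a line joining the earlier sample (left) and the PF sample (right) of an array and open points for samples not above background. For miR-279 the strains lie apart on the left and closer together on the right, and for miR-100 every earlier sample is open.

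Another member of the nervous system list, miR-7, a regulator of photoreceptor differentiation, passed the test within 3 of the 4 strains. Its change was 1.04 in Canton-S, 0.77 in Samarkand and 1.03 in Zimbabwe-109, and 0.05 ± 0.16 in Oregon-R (adjusted p = 0.857). The Oregon-R arrays gave -0.31, -0.08, 0.15 and 0.42, and the lowest of the other 12 arrays read 0.46, so the groups did not overlap. The difference of Oregon-R from the mean of the others was -0.90 (adjusted p = 0.00709). The F test for miR-7 (adjusted p = 0.0182) was lost in 6 of 36 alternatives, where its adjusted p reached 0.337. The miR-7 probe was not detected in at least 3 samples of each of the 8 groups. Of the 7 tested probes of that list, 2 passed the F test, against 61 of all 272. The neuronal miR-124 and miR-137 had changes within 0.13 and 0.14 of each other over the strains, but they were above background in only 5 and 2 of the 32 samples.

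The apoptosis regulators miR-2a and miR-2b, which share the seed shown above and repress cell death genes such as reaper and hid, rose in all 4 strains and to different degrees. The change of miR-2a was 0.88, 0.88, 1.17 and 1.31 in the Oregon-R arrays and 1.50, 1.99, 2.34 and 2.39 in the Zimbabwe-109 arrays. The Canton-S arrays ran from 1.17 to 2.32 and the Samarkand arrays from 1.19 to 1.74. Oregon-R and Zimbabwe-109 did not overlap, and the intermediate strains overlapped with both. The fitted changes were 1.06, 1.72, 1.44 and 2.06 ± 0.13 in the same order of strains as for miR-279 (adjusted p = 0.00734), and those of miR-2b were 0.99, 1.54, 1.30 and 1.83 ± 0.14 (adjusted p = 0.0316). As with miR-279, the earlier level of miR-2a was highest in Oregon-R, at 10.85 ± 0.43 against 9.75 to 9.99 for the other strain means. At PF its strain means spanned 11.36 to 11.91 and did not pass the level test (adjusted p = 0.0914). The targets of these 2 probes are near-identical and can share signal, and miR-2b was not called in 17 of 37 alternatives. Of the 10 tested probes of the miR-2 family, 2 passed the F test, against 61 of all 272, and the median range over the strains was 0.776 against 0.448 for all tested probes. The change was lowest in Oregon-R in all 10 and in 144 of the 272, and probes of the family can share signal.

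In the let-7 complex the strains passed the F test for miR-100 and not for let-7 or miR-125. The change of let-7 was 4.65 in Oregon-R, 4.43 in Canton-S, 4.89 in Samarkand and 4.96 in Zimbabwe-109, each ± 0.29, with arrays of every strain overlapping. The strains did not pass the F test for let-7, at an adjusted p of 0.722, and its range was 0.54. No tested probe of the complex was detected in at least 3 samples of each of the 8 groups. The changes of let-7 can therefore also be compressed by the background. For miR-100 the range was 1.77 and the test was passed (adjusted p = 0.000359). The Canton-S arrays gave 0.16, 0.21, 0.43 and 0.44, and the Oregon-R arrays gave 1.59, 1.71, 2.07 and 2.33. Samarkand read 1.90, 1.96, 1.99 and 2.47, and Zimbabwe-109 read 0.83, 1.09, 1.73 and 1.93. Each Canton-S array was below each array of the other strains. No earlier sample of any strain was above background for miR-100. At PF it was above background in 4 of 4 samples of Oregon-R and of Samarkand, 3 of 4 of Zimbabwe-109 and 1 of 4 of Canton-S. Its level at PF was therefore at least 2.66-fold higher than earlier in Oregon-R, at least 2.65-fold in Samarkand and at least 1.72-fold in Zimbabwe-109, while the Canton-S change of 0.31 ± 0.17 did not pass the test (adjusted p = 0.149). Such a bound sets the mean of the bright group against the higher, in each dim sample, of its own signal and the lowest detected signal. The PF level was 6.42 ± 0.15 in Canton-S against 8.65 ± 0.18 in Samarkand (SD, n = 4). With slide as a term, the Canton-S minus Oregon-R difference went from -1.62 to -1.07 (adjusted p = 0.228).

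The third member, miR-125, had measured changes of 2.16 in Oregon-R, 1.08 in Canton-S, 1.38 in Samarkand and 0.67 in Zimbabwe-109, each ± 0.28. The F test was not passed (adjusted p = 0.0677), but the difference between Zimbabwe-109 and Oregon-R was (-1.49, adjusted p = 0.0330). The Oregon-R arrays spread from 1.63 to 2.68 and the Zimbabwe-109 arrays from -0.31 to 1.26, without overlap. At the earlier stage miR-125 was above background in 1 of 16 samples, so these changes are compressed by the background.

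A wider list of 13 tested probes linked to ecdysone or metamorphosis held 5 that passed the F test, against 61 of all 272, with a median range of 0.697 against 0.448. These were miR-100, miR-34, mir-34-3p, miR-252 and mir-14-5p, the last a probe with runs of G. The change of miR-252 was highest in Zimbabwe-109, at 1.26 ± 0.14 against 0.49, 0.69 and 0.56 in Oregon-R, Canton-S and Samarkand (adjusted p = 0.0330). The growth regulator bantam had a range of 0.25 and miR-8, which acts on growth through the fat body, one of 0.88, and neither passed (adjusted p = 0.567 and 0.0776).

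The cluster of miR-277, miR-34 and miR-317 on 3R held 3 called probes of 4 tested, against 61 of all 272. The 5p arm, miR-34, fell in each strain, by 1.21 in Oregon-R, 1.89 in Canton-S, 1.26 in Samarkand and 1.20 in Zimbabwe-109, each ± 0.14 on the log2 scale. The Canton-S arrays of -2.19, -2.12, -1.68 and -1.59 were all lower than every other array. Canton-S differed from the mean of the others by -0.67 at an adjusted p of 0.0481. The F test for miR-34 (adjusted p = 0.0446) was lost in 28 of 36 alternatives, where its adjusted p reached 0.579. The 3p arm of the same hairpin departed in another strain. It fell by 1.39 in Oregon-R, 1.31 in Canton-S and 0.95 in Samarkand, each ± 0.19, while the change in Zimbabwe-109 was -0.23 (adjusted p = 0.315). The Zimbabwe-109 arrays read -0.54, -0.27, -0.06 and -0.03. They overlapped with 1 Samarkand array at -0.19 and with no other. Zimbabwe-109 differed from the other strains by 0.99 (adjusted p = 0.00489). Its earlier level of mir-34-3p, 6.70 ± 0.53, was near background, which 1 of its 4 earlier samples exceeded, while Oregon-R stood at 9.09 ± 0.26 with 4 of 4 above. The changes of miR-317 were small and of mixed sign, at -0.25 in Oregon-R and 0.34, 0.19 and 0.34 ± 0.10 in the others (adjusted p = 0.0267, lost in 14 of 36 alternatives), and the signs of the latter 3 turned under another scaling. For miR-277 the 4 changes ran from -0.61 to -0.28 and did not pass (adjusted p = 0.512).

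Of the miRNAs of the Hox clusters, miR-10-5p differed in 1 strain. This miRNA lies in the Antennapedia complex and pairs with Hox messages in many animals. It changed by 0.60, 0.75, 1.20 and 1.41 in the Zimbabwe-109 arrays. The Oregon-R arrays read -1.07, -0.13, 0.10 and 0.12, the Canton-S arrays -0.34, -0.14, 0.01 and 0.19, and the Samarkand arrays -0.67, -0.20, -0.11 and -0.09. All 4 Zimbabwe-109 arrays were above the 12 others, which overlapped with each other. The rise of 0.99 ± 0.19 in Zimbabwe-109 passed the test (adjusted p = 0.000441) and the changes of the other 3 strains did not, but that rise lay between 0.00938 and 1.42 under other scalings. The difference of Zimbabwe-109 from the other strains was 1.18 (adjusted p = 0.00158). It was above background in all 32 samples. With slide as a term the difference between Zimbabwe-109 and Samarkand was 1.55 (adjusted p = 0.00248), and within the slide they share it was 1.57 (2 Samarkand and 3 Zimbabwe-109 arrays, adjusted p = 0.165). The other arm, miR-10-3p, had a range of 0.63 (adjusted p = 0.0728) and miR-993 one of 0.08.

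The direction of change itself differed for miR-289, whose level rose at PF in Oregon-R and Canton-S and fell in Samarkand and Zimbabwe-109. The Oregon-R arrays gave 0.26, 0.55, 0.84 and 1.27 and the Canton-S arrays 0.75, 1.29, 1.30 and 1.66. The Samarkand arrays gave -1.21, -1.19, -1.01 and -0.32 and the Zimbabwe-109 arrays -1.53, -0.82, -0.73 and -0.70. The pairs of strains did not overlap. The fitted changes were 0.73, 1.25, -0.93 and -0.95 ± 0.19 (adjusted p = 4.7e-05), each past the test within its strain. The Samarkand arrays of -1.21 and -1.01 lay on a slide without Zimbabwe-109, and those of -1.19 and -0.32 on the shared one.

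The level of miR-289 ordered the strains differently at each stage. At the earlier stage Samarkand was highest, at 9.20, 9.46, 9.69 and 10.04, while the means of Oregon-R, Canton-S and Zimbabwe-109 were 8.07, 8.05 and 8.29. A single sample of another strain, a Zimbabwe-109 one at 9.50, reached into that range. At PF Zimbabwe-109 was lowest, at 6.92, 7.22, 7.27 and 7.97, against means of 8.80 in Oregon-R, 9.30 in Canton-S and 8.66 in Samarkand. The probe was above background in 30 of 32 samples. The level test was passed at both stages (adjusted p = 0.00119 and 0.000771).

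Over all probes the strains differed in level at the earlier stage in 108 probes (39.7%) and at PF in 87 (32%). Of all 272 tested, 55 differed in level at both stages. Of the 61 probes whose stage change differed, 29 differed in level at the earlier stage only and 8 at PF only. A further 21 differed at both and 3 at neither. A change is the PF level minus the earlier level on the same arrays, so it can differ among strains only if some level does. The low count at neither stage was therefore likely beforehand and is not a separate result. Among the 15 called D. melanogaster probes without runs of G, the strain means spanned a wider range at the earlier stage than at PF in 9, against 134 of all 272 tested. The change was lowest in Oregon-R in 10 of these 15 and in 53 of the 83 tested, and highest in Zimbabwe-109 in 10 of the 15 and in 43 of the 83.

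The remaining called miRNAs had smaller or dimmer signals. The change of miR-998 was 0.20 in Oregon-R and 1.03 in Zimbabwe-109, and that of miR-986 was -0.03 in Oregon-R and 0.69 in Canton-S. For miR-2493* the change was -1.56 in Canton-S and -0.14 in Oregon-R. The mirtron miR-1010, which is made by splicing, changed by 0.98 in Zimbabwe-109 but was above background in only 2 of its 4 PF samples.

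Some abundant miRNAs differed little among the strains, and those given here were picked for their small range. Of the 63 tested probes detected in all 32 samples, 18 passed the F test, against 61 of all 272. The smallest ranges among D. melanogaster probes detected in all 32 samples were 0.17 for miR-970, 0.19 for miR-31a, 0.23 for mir-8-5p, 0.24 for miR-281-2* and 0.27 for miR-276a. Of these, miR-276a, which tunes a dopamine receptor in the fly brain, rose by 1.08 in Oregon-R, 0.99 in Canton-S, 1.15 in Samarkand and 0.89 in Zimbabwe-109. The gut miRNA miR-281-2* fell by 0.65, 0.82, 0.75 and 0.58 on the log2 scale. Under other scalings the Zimbabwe-109 change ran from -1.14 to 0.193 for miR-281-2* and from -0.000799 to 1.33 for miR-276a, so its direction there is not settled. In the list for gut, fat body and metabolism, 1 of 17 tested probes passed the F test, mir-14-5p with its runs of G, and the median range was 0.332. No probe passed among 5 of the miR-9 family, 4 of the miR-275 and miR-305 cluster, 3 of miR-276 and 3 of the muscle list. Of 5 tested probes of miR-310 to miR-313 and miR-92 1 passed, mir-313-5p with its runs of G, and of 2 mirtrons 1 passed, miR-1010.

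Over the tissue marker lists, 2 of 15 tested probes passed the F test, against 61 of all 272. Of these lists, 0 of 2 muscle probes, 0 of 7 gut and fat body probes and 0 of 1 germ line and ovary probe passed. Muscle miR-1 was above background in all 32 samples and its changes ran from -0.12 to 0.50 (adjusted p = 0.629). Of the 3 nervous system markers miR-7 was called, and of the 2 testis markers tested miR-964 was called, while 8 testis markers were not tested for want of signal. The miR-964 probe has runs of G. Its mean female changes were -1.49 (SD 1.25) in Oregon-R and -4.47 (SD 3.81) in Zimbabwe-109, beside male changes of -0.18 and -1.54. Whether its signal comes from testis was not tested. The part of tissue make-up in the strain differences was not tested.

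Larger strain differences than those of the 15 miRNAs above were on custom probes and on probes for other insects. Of 47 custom probes tested, 18 passed the F test, against 61 of all 272. The 24 that carry the name of a known miRNA held 3 of the 18, mir-34-3p among them, and the 23 candidates with no such name held 15. Both arms of the candidate called dsi-wu-mir-2338 had the lowest change in Oregon-R and the highest in Zimbabwe-109. Its 3p arm changed by -1.50, -0.93, -0.64 and -0.62 in the Oregon-R arrays and by 3.36, 3.43, 3.70 and 4.93 in the Zimbabwe-109 arrays. Canton-S read 0.19 to 1.35 and Samarkand -0.10 to 2.20, so both lay between the other 2 strains without overlap. The fitted changes were -0.92, 0.82, 1.04 and 3.85 ± 0.27 (adjusted p = 1.88e-05), and those of the 5p arm were -1.12, 0.02, -0.02 and 3.04 ± 0.28 (adjusted p = 2.66e-05). At PF neither arm was above background in Oregon-R, and the level was at least 44.0-fold higher in Zimbabwe-109 for the 3p arm and at least 41.7-fold for the 5p arm. With slide as a term the Zimbabwe-109 minus Samarkand difference was 2.96 (adjusted p = 0.0146) and 2.91 (adjusted p = 0.0182).

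Other custom probes and probes for other insects set 1 strain apart. The level of dsi-wu-mir-2359-5p rose by 0.95 ± 0.17 in Zimbabwe-109 and fell in the other 3 strains, with changes of -0.73, -1.02 and -1.08 (adjusted p = 4.92e-05), and at PF it was above background in no Oregon-R sample. The silkworm probe bmo-miR-2774c rose by 2.02 ± 0.14 in Oregon-R, by 0.42 in Canton-S, and changed by -0.06 and 0.00 in Samarkand and Zimbabwe-109, where no PF sample was above background. The custom probe t454m18-seq-6-5p was above background in no PF sample of any strain. Its earlier level was at least 6.76-fold above its PF level in Oregon-R and at least 2.35-fold in Zimbabwe-109. In Canton-S it was at background at both stages, so no fall could be measured there. The silkworm probe bmo-miR-3366 was also above background in no PF sample. In Zimbabwe-109 its earlier level was at least 58.7-fold above its PF level and at least 57.4-fold above the earlier level of Oregon-R, which was below background at both stages. What RNA these probes capture in flies was not tested.

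Probes whose targets have runs of G made up 16 of the 61 called. Of the 20 tested, 16 passed the F test, against 61 of 272 probes in all, and their median range was 3.19 against 0.448 for all. Their median changes were -0.38 in Oregon-R, -2.18 in Canton-S, -1.71 in Samarkand and -4.20 in Zimbabwe-109. The change was lowest in Zimbabwe-109 in 14 of the 20 (55 of all 272) and highest in Oregon-R in 13 (39 of 272). Of the 20, 5 were above background in 0 and 7 in at most 1 of the 8 Oregon-R samples, so a fall could not be measured there. The largest range was that of dme-wu-mir-2318-5p, with fitted changes of -2.01, -6.22, -4.24 and -7.74 ± 0.49. At PF neither that probe nor mir-313-5p was above background in any Oregon-R sample, so their Oregon-R falls are at least 2.73-fold and at least 9.40-fold. Among D. melanogaster names, mir-14-5p changed by -4.91, -5.67, -3.82 and -7.68 ± 0.53 (adjusted p = 0.0104) and mir-313-5p by -3.44, -4.53, -3.97 and -6.59 ± 0.32 (adjusted p = 0.000757). The probe for miR-964, a miRNA of the testis lists, had the smaller changes of -0.18, -0.47, -0.48 and -1.54 ± 0.21 (adjusted p = 0.0182). Of the 41 probes that set Oregon-R apart 11 have runs of G, and of the 47 that set Zimbabwe-109 apart 13 do. Whether these probes read their named targets was not tested.

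The changes of each array were also summarised as the slope on the mean change of the other 3 strains. This slope falls both with smaller changes and with a lower correlation, so it is not a measure of size alone. Each strain has its own reference, made from the other strains, so slopes of different strains are not strictly exchangeable. The permutation p-values of the slopes are therefore only descriptive. Over all 272 probes the Oregon-R arrays had slopes of 0.52 to 0.71, the Samarkand arrays 0.65 to 0.82, the Canton-S arrays 0.97 to 1.19 and the Zimbabwe-109 arrays 1.12 to 1.68. The means were 0.631 ± 0.085, 0.753 ± 0.074, 1.07 ± 0.094 and 1.40 ± 0.248 (SD, n = 4 arrays). By exact two-sided permutation tests over the 6 pairs, the smallest p that 4 against 4 arrays allow is 0.0286, and 4 pairs reached it (0.0429 after adjustment). The pairs of Zimbabwe-109 with Canton-S and of Samarkand with Oregon-R did not pass, with exact p values of 0.0571 and 0.0857 (0.0686 and 0.0857 after adjustment).

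Without the probes with runs of G the slopes of the strains were closer. The mean slope was 0.615 in Oregon-R, 1.07 in Canton-S, 0.868 in Samarkand and 1.10 in Zimbabwe-109, and the Zimbabwe-109 and Canton-S arrays overlapped (exact permutation p = 0.771). Each pair with Oregon-R had the smallest exact permutation p, 0.0286, which was 0.0571 after adjustment. Over the 83 D. melanogaster probes without runs of G, the slopes were 0.857 ± 0.036 in Oregon-R, 1.05 ± 0.050 in Canton-S, 0.964 ± 0.169 in Samarkand and 0.950 ± 0.069 in Zimbabwe-109 (SD, n = 4 arrays). The Oregon-R and Canton-S arrays did not overlap there (exact permutation p = 0.0286, 0.171 after adjustment). Over the 130 probes detected in at least 1 sample of each of the 8 groups, the mean slopes were 0.910 in Oregon-R, 1.07 in Canton-S, 0.738 in Samarkand and 1.20 in Zimbabwe-109. The order of strains thus depended on which probes were counted, and the low Oregon-R slope over all 272 included probes at background in that strain. The SD of the changes over the 272 probes, which does not depend on the other strains, averaged 1.05 ± 0.082 in Oregon-R, 1.33 ± 0.106 in Canton-S, 1.04 ± 0.087 in Samarkand and 1.72 ± 0.336 in Zimbabwe-109 (SD, n = 4 arrays).

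**Figure D3:**
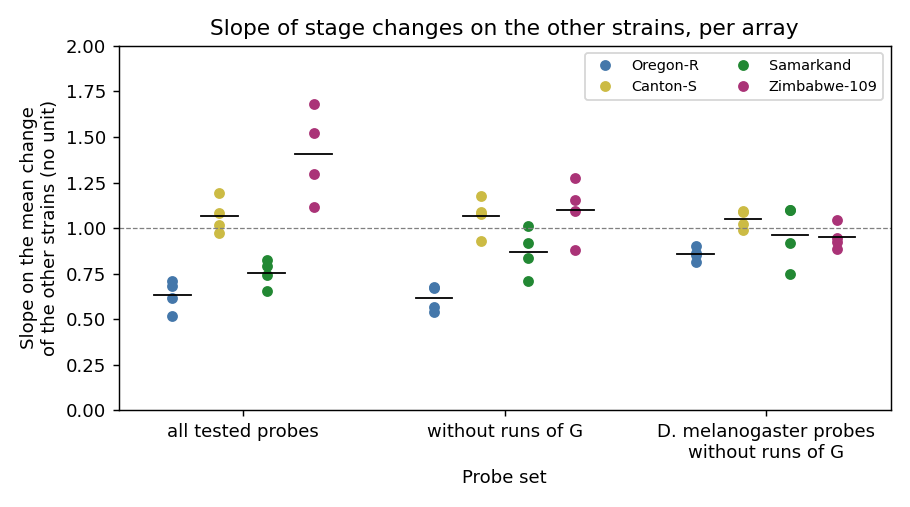
Slope of each array's stage changes on the mean change of the other 3 strains (vertical axis, no unit) for all 272 tested probes, for the 252 without runs of G and for the 83 D. melanogaster probes without runs of G, with points for arrays and bars for strain means. The Zimbabwe-109 mean goes from 1.40 to 1.10 and 0.950 across the 3 probe sets, and the Oregon-R mean from 0.631 to 0.615 and 0.857.

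Females of Oregon-R and Zimbabwe-109, 16 samples on 8 arrays that the male comparison did not use, allowed the same strain contrast. In females 11 probes (4.04%) differed between the strains, 4 with a higher and 7 with a lower change in Zimbabwe-109 (27 at an unadjusted p under 0.05). Of the 55 probes called in males, 42 had the same sign in females and 7 were called there too. The share with the same sign among all 272 was not counted, so the 42 cannot be set against it. Across the 272 probes the male and female differences correlated at a Pearson r of 0.704 and a Spearman rho of 0.460, and r was 0.607 without the probes with runs of G. Probes are not independent replicates, and probes of 1 family share signal. On the slide that held 4 Oregon-R and 2 Zimbabwe-109 female arrays, 1 probe was called (23 unadjusted), and leaving out any 1 of the 8 female arrays left 1 to 6 called. The further number in the file names, whose meaning no label gives, differed between the strains on that slide too.

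For miR-289 the female changes were 0.52, 1.18, 1.55 and 2.84 in Oregon-R and -0.61, -0.51, 0.26 and 0.26 in Zimbabwe-109, without overlap. The female difference of -1.67 ± 0.32 (adjusted p = 0.0336) stands beside -1.68 in males, and it was -1.70 within the shared slide (adjusted p = 0.245). The male difference minus the female one was -0.01 ± 0.54. In females miR-100 changed by 3.86 to 4.69 in Oregon-R and by 2.87 to 3.39 in Zimbabwe-109, a difference of -1.10 (adjusted p = 0.0332). The male arrays of these strains overlapped, at 1.59 to 2.33 in Oregon-R and 0.83 to 1.93 in Zimbabwe-109. The low male change of miR-100 in Canton-S could not be compared, since the series has no Canton-S females. The female difference of miR-125 was -1.80 (adjusted p = 0.0332). That of dsi-wu-mir-2338 was also called, at 2.09 for the 3p arm and 2.48 for the 5p arm. Both arms fell in females of both strains, unlike in Zimbabwe-109 males, where they rose. The 3p arm changed by -2.64 in Oregon-R and -0.55 in Zimbabwe-109 females, and the 5p arm by -3.27 and -0.79. The male difference exceeded the female one by 2.69 and 1.69, and both passed the test between the sexes.

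For miR-279, miR-10-5p and miR-2a the difference between the sexes also passed the test. The female changes of miR-279 were 1.14, 1.36, 1.82 and 2.20 in Oregon-R and 1.26, 1.36, 1.79 and 2.49 in Zimbabwe-109, which overlapped fully. The strain difference in females was 0.09 ± 0.29 (adjusted p = 0.906), -0.05 within the shared slide, and the male difference exceeded it by 2.17 ± 0.35 (adjusted p = 0.00197). For miR-10-5p the strain difference was 1.82 ± 0.42 larger in males (adjusted p = 0.0221), with female changes of 0.13 to 1.21 in Oregon-R and -0.57 to 0.20 in Zimbabwe-109. For miR-2a it was 1.11 ± 0.28 larger in males (adjusted p = 0.0383). In all, 12 probes (4.41%) differed in this way, 10 with a higher and 2 with a lower value in males, and 44 did so at an unadjusted p under 0.05. Other normalisations gave lower counts, 7 by quantile or cyclic loess, 2 by median centring or in the authors' table, and 1 when that table was centred. The count was 7 without male Oregon-R, male Zimbabwe-109 or female Zimbabwe-109 replicate 2, and 20 without female Zimbabwe-109 replicate 4. Males and females lay on separate slides, so sex and slide cannot be told apart here.

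**Figure D4:**
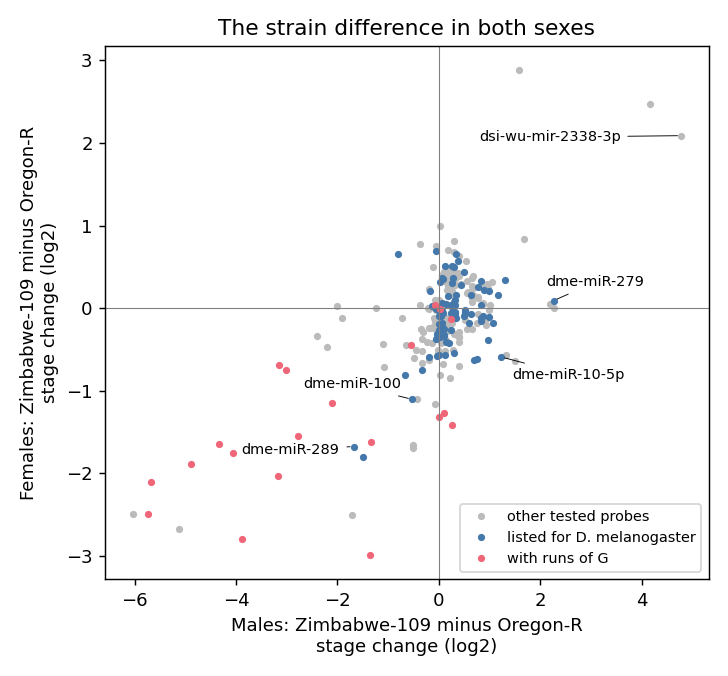
Zimbabwe-109 minus Oregon-R difference in stage change (log2) in males (horizontal axis) and in females (vertical axis), 1 point per tested probe, coloured by probe class. miR-289 lies at -1.68 and -1.67, near the diagonal, whereas miR-279 lies at 2.27 and 0.09.

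Slide bears on the male counts as follows. All 30 probes called between Zimbabwe-109 and Samarkand kept their sign with slide as a term, and 25 were called. Within the slide that these strains share, all 30 again kept their sign and 0 were called by limma (41 at an unadjusted p under 0.05). The further number in the file names, whose meaning no label gives, differed between these strains even there. All 24 probes called between Canton-S and Oregon-R kept their sign with slide as a term, which links them through D. simulans arrays, and 2 were called (39 at an unadjusted p under 0.05). The 30 and the 24 probes were chosen by their calls on these same arrays. Their kept signs were therefore likely beforehand and are not a separate check.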

How the data were processed

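Each deposited scanner file holds 1 linear intensity per spot and dye, per the file headers. The 4 replicates of a group are biological, by the design text. A service company labelled and hybridised the RNA, per the labels' protocols.

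The array held 5022 spots, 3 per probe, and 8 probes for 2S rRNA were left out. The files hold no local background, so the 689 empty spots, with medians of 29.8 to 136, stood in. Intensities were corrected by normexp (offset 50), normalised by loess within and Aquantile between arrays, and the median of 3 spots was taken. A probe was tested when detected in at least 3 samples of 1 of the 18 groups of the series. Within-array log2 ratios were fitted in limma 3.58.1 and statmod 1.5.0 (R 4.3.3) with strain and dye orientation, and levels with the array as a random block. The false discovery rate was 0.05. The fit was tested on simulated data. A processed intensity table deposited by the authors, whose scale and centring stay unknown, served as an alternative on log2 scale with a pseudocount of 50.

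The file headers show that an array pairs the 2 stages. Deviations of its 2 samples from their group means correlated at -0.0478 to 0.743, and the level fit estimated 0.453. The number of arrays limits the precision.

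Named probes were, 1 per arm, up to 24 called with the largest range, up to 5 in each direction per strain against the rest, up to 6 with the smallest range, let-7, miR-100, miR-125 and miR-34, and up to 4 of each list. The called D. melanogaster probes miR-2493*, miR-998, miR-252 and miR-986 fall outside this rule and were named after their values were seen, so that all 15 without runs of G are accounted for. Members, lists and tests were chosen with earlier results of these data known.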

Additional observations from a re-analysis of the deposited data

Results flagged for a closer look

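In 26 of 292 sets of 4 arrays, a single array stood apart from the other 3 by more than 0.829 of the range, which chance gives in about 1 set of 20. Among D. melanogaster miRNAs of the report, the stray changes were 3.92 for let-7 and -1.53 for miR-289 in Zimbabwe-109, 2.47 for miR-100, 0.48 for miR-7 and -0.19 for mir-34-3p in Samarkand, and -1.43 for miR-34 and 0.0199 for mir-125-3p in Oregon-R. Zimbabwe-109 replicate 2 also strayed for miR-277 (0.31), miR-281-2* (-0.0680), miR-970 (1.20) and mir-996-5p (1.28), replicate 4 for miR-974 (0.11) and replicate 3 for miR-8 (0.14). In Canton-S the stray changes were 0.78 for miR-275, 0.34 for miR-993, 0.92 for miR-92a, -5.18 for mir-313-5p, 0.0862 for bmo-miR-2774c and 0.0544 for t454m18-seq-6-5p. In Samarkand they were -0.93 for miR-8, 0.0790 for miR-92a, -1.65 for bmo-miR-3366 and -3.06 for dps-miR-1000*, and in Oregon-R 0.0731 for miR-970, 1.23 for bmo-miR-2774c and -2.42 for t454m18-seq-6-5p.

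For 6 probes that passed the interaction F test, every array of 1 strain changed one way and every array of another strain the opposite way. The range of the strain changes was 4.78 for dsi-wu-mir-2338-3p, 4.17 for dsi-wu-mir-2338-5p, 2.20 for miR-289, 2.02 for dsi-wu-mir-2359-5p, 1.26 for miR-10-5p and 0.59 for miR-317.

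For 11 named probes the Zimbabwe-109 minus Oregon-R difference itself differed between the sexes by limma's test. Male minus female, it was 2.69 for dsi-wu-mir-2338-3p, 1.69 for dsi-wu-mir-2338-5p, 0.84 for dsi-wu-mir-2359-5p, 2.17 for miR-279, 2.27 for tca-miR-279b, 2.15 for bmo-miR-279a, 1.82 for miR-10-5p, 2.15 for lmi-miR-10 and 1.11 for miR-2a. It was -2.46 for mir-313-5p and -2.03 for bmo-miR-2774c. The sexes lay on separate slides, and slide was not tested apart from sex.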

How the results depend on the processing

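Of 38 named probes past the interaction test, 15, miR-279, miR-289 and both arms of dsi-wu-mir-2338 among them, kept their direction and call in every alternative computed for them, at most 37 each, and 2 lost the call in most of theirs. Of 34 named probes not past it, 18 passed in some alternative. The 1 reversal was mir-8-5p in the authors' table (-0.40). Under some scaling the sign turned, among others, for miR-317 in all strains but Oregon-R, for mir-34-3p in Zimbabwe-109, miR-281-2* and miR-276a in Zimbabwe-109, miR-7 in Oregon-R, miR-100 in Canton-S, and miR-10-5p in Canton-S and Samarkand.

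The F count was 23 after plain subtraction and 92 without normalisation. It was 22 of the 87 probes detected in at least 3 samples of each of the 8 groups, and 28 of 1339 without a filter. With slide fixed it was 26, for Canton-S minus Oregon-R and Zimbabwe-109 minus Samarkand only. Without the replicate block it was 36, of which 35 were shared with the 61; Oregon-R against the rest then gave 20, Canton-S 2, Canton-S minus Oregon-R 12, Zimbabwe-109 minus Oregon-R 33 and Samarkand minus Canton-S 4. With a random array block it was 70. Oregon-R against the rest gave 85 with median centring, 120 without normalisation, 24 with the centred authors' table and 91 with slide as a random block. Canton-S gave 15 by cyclic loess and 23 with random slide. Samarkand gave 4 without normalisation, 12 by quantile, 11 with all 36 arrays and 11 with random slide, and Zimbabwe-109 26 with median centring. With random slide, Canton-S minus Oregon-R was 46, Samarkand minus Oregon-R 25, Samarkand minus Canton-S 20 and Zimbabwe-109 minus Canton-S 46. Without normalisation the same pairs gave 57, 22, 4 and 14, and Zimbabwe-109 minus Samarkand 17. With median centring, Samarkand minus Canton-S was 3, Zimbabwe-109 minus Canton-S 14, Zimbabwe-109 minus Samarkand 17 and the Oregon-R stage change 53. Samarkand minus Canton-S was also 11 by cyclic loess, 14 in the authors' table and 3 when adjusted within the pair. Canton-S minus Oregon-R was 2 with slide fixed, and Zimbabwe-109 minus Samarkand 0 within the shared slide. The PF level count was 30 in the authors' table. In females the count was 2 by median centring or quantile, 3 by cyclic loess or either form of the authors' table, and 1 within the shared slide. The sex difference count was 2 by median centring, 7 by quantile or cyclic loess, 2 in the authors' table and 1 when it was centred. Mean slopes without runs of G were 0.868 (Samarkand) and 1.10 (Zimbabwe-109). Over the 130 probes detected in at least 1 sample of each of the 8 groups the Oregon-R mean was 0.910. D. melanogaster probes without runs of G gave 0.857 (Oregon-R), 0.964 (Samarkand) and 0.950 (Zimbabwe-109). The cause of these shifts was not tested.

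Leaving out 1 array gave 39 to 65 for the F test, against the rest 19 to 53 for Oregon-R, 4 to 9 for Canton-S, 0 to 10 for Samarkand and 39 to 66 for Zimbabwe-109, 15 to 28 for Canton-S minus Oregon-R, 10 to 17 for Samarkand minus Oregon-R, 34 to 65 for Zimbabwe-109 minus Oregon-R, 3 to 10 for Samarkand minus Canton-S, 16 to 37 for Zimbabwe-109 minus Canton-S, 20 to 46 for Zimbabwe-109 minus Samarkand, 1 to 6 in females and 7 to 20 for the sex difference. Stage changes then gave 81 to 87 (Oregon-R), 101 to 140 (Canton-S), 98 to 128 (Samarkand) and 127 to 173 (Zimbabwe-109), and levels 84 to 118 earlier and 70 to 98 at PF.

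Median centring moved the median change of all probes by 0.37 in Canton-S, 0.22 in Samarkand and 0.25 in Zimbabwe-109, and by 0.03 in Oregon-R. Slide as a fixed term could not be fitted for a strain against the rest. The female slide alternative and those for slopes, stage changes and the sex difference were added after the data were seen. Probes near background have compressed changes.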

Other observations

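The level on 1 miRNA probe set a strain apart although the stage change of that probe did not pass the test. The 3p arm of miR-305, a miRNA of gut stem cell and metabolic control in flies, was chosen for this paragraph after its values were seen. Its target in the array design, on 2L, has its seed in capitals here.
mir-305-3p: cGGCACAUguugaaguacacuca
Its change lay near 0 in every strain, from -0.08 to 0.25 ± 0.16 (adjusted p = 0.695 by limma). The Samarkand samples read 5.87, 6.13, 6.14 and 6.40 at the earlier stage and 6.09, 6.10, 6.17 and 6.34 at PF, and 0 of the 8 were above background. All 24 samples of the other strains were above background, at 7.97 to 9.40. The earlier level was at least 3.51-fold higher in Oregon-R than in Samarkand, and the PF level at least 5.42-fold higher in Canton-S than in Samarkand. Another tested probe named for this arm, dsi-mir-305-3p, had a range of changes of 0.394 (adjusted p = 0.534 by limma). Its levels are not given here, so the low Samarkand signal rests on 1 probe. The 5p arm, miR-305, rose in all 4 strains, by 1.17 in Oregon-R, 0.96 in Canton-S, 1.10 in Samarkand and 0.83 in Zimbabwe-109.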
